A study of Mus musculus with 4 samples.

Results

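The 10 genes described here are widely used readouts of YAP and TAZ: Cyr61, Ctgf, Ankrd1, Amotl1, Amotl2, Axl, Arhgef17, Nt5e, Ajuba and Crim1. They were chosen by symbol, with earlier results of these data known. All 10 were found among the 54446 genes with a name in the deposited count table. That table uses the older symbols Cyr61 and Ctgf for the genes now called Ccn1 and Ccn2. RNA was sequenced in 4 libraries of C57BL/6 tongue epithelial cells grown in RPMI-1640 with fetal serum. The group of 2 libraries called Control 1 and 2 is wild type, and the group of 2 called Otub2 knockout 3 and 4 comes from mice lacking Otub2, a deubiquitinase of the OTU family, throughout the body. The comparison asks how these genes differ between knockout and wild-type cells. The labels leave out which part of the gene was deleted, the age of the mice and whether each library is its own animal or culture. The p-values below therefore rest on the spread between these samples, which could be technical.

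YAP and TAZ are transcriptional coactivators held in check by the Hippo kinase cascade, in which MST kinases activate LATS kinases and LATS phosphorylates YAP and TAZ so that they stay in the cytoplasm. When they enter the nucleus they bind TEAD transcription factors, which recognise a short DNA element, and switch on genes of adhesion, growth and cytoskeletal tension. In stratified epithelium they are active mainly in basal cells. Several of their targets code for proteins that feed back on the pathway, so the same gene can be both readout and regulator.

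In the deposited table the headers of the knockout columns read OE rather than KO, followed by the numbers 3 and 4 that the sample titles carry, and they were matched by that number. OE can stand for overexpression; the titles and genotype labels were followed, and a reader who takes the header instead would read each fold change as that of a gain. Otub2 itself had 393 and 367 counts in wild type and 272 and 495 in the knockout libraries, 27.5, 26.9, 19.0 and 24.0 CPM (counts per 1000000 counts), so its transcript was present in all 4 libraries and these values do not check a deletion. Counts in named genes ranged from 11548186 to 22719550 per library, and all 6 pairs of libraries differed by more than sampling noise. The 2 knockout libraries differed from each other the most, with a chi-square per degree of freedom over genes of 729.7. It was 14.7 between the controls and 110.3 to 517.1 between a knockout library and a control. Knockout 3 stood apart: 8 gland genes summed to 6.52 to 27.1 CPM in the other libraries and to 402069 CPM in it, most of it from the secreted protein gene Mucl2, and 9 cardiomyocyte genes summed to 31.9 to 55.7 CPM in the other libraries and to 19069 CPM in it. Keratinocyte markers were abundant in all 4 libraries (a sum over 10 genes of 54104 and 58255 CPM in wild type, 31296 CPM in knockout 3 and 42346 CPM in knockout 4). CPM values here are scaled by TMM, a method that estimates each library's size from genes that differ little, with 21916 genes tested. A scaled CPM is therefore not a share of the library's counts. The TMM factor of knockout 3 was 0.650, which raises its CPM values, and Mucl2 had 5462635 of its 22719550 counts in named genes.

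Most of the targets lay above the controls in both knockout libraries on this scale. For 8 of the 10 genes both knockout libraries lay above both controls, and for none did both lie below. Among all genes tested 26.9% lay above in this way and 33.1% below, and 42.7% above and 12% below among the 11788 genes with a mean of at least 5 CPM, the range these genes fall in (Ankrd1 through knockout 3 only), so part of this count belongs to the scale. The median log2 fold change of the 10 was 1.41, against 0.09 for all genes tested and 0.41 for genes with a mean of at least 5 CPM. A stricter gap, the lower knockout library at least 2-fold above the higher control, was met by 4 of the 10 (Cyr61, Amotl2, Arhgef17 and Nt5e) and by 3.82% of genes with a mean of at least 5 CPM. Because the members were chosen with earlier results of these data known, setting them against other genes, here and below, describes them and does not test the list.

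No member passed the test over all genes. With edgeR's quasi-likelihood test and Benjamini-Hochberg adjustment at 0.05, 0 of the 10 were called higher and 0 lower, and 0% of the 21916 genes were called in either direction. At an unadjusted p under 0.05 the test had 6 of the 10 higher (Cyr61, Ankrd1, Amotl2, Arhgef17, Nt5e and Crim1) and 0 lower, against 9.42% of all genes higher and 15.2% lower, and 15.6% higher among genes with a mean of at least 5 CPM. DESeq2 on the same counts called 5 of the 10 higher (Cyr61, Ankrd1, Amotl2, Arhgef17 and Nt5e) and 2.86% of all genes higher, and voom called 0. All 10 genes had at least 22 counts in every library, so none entered the test through one group alone.

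**Figure D1:**
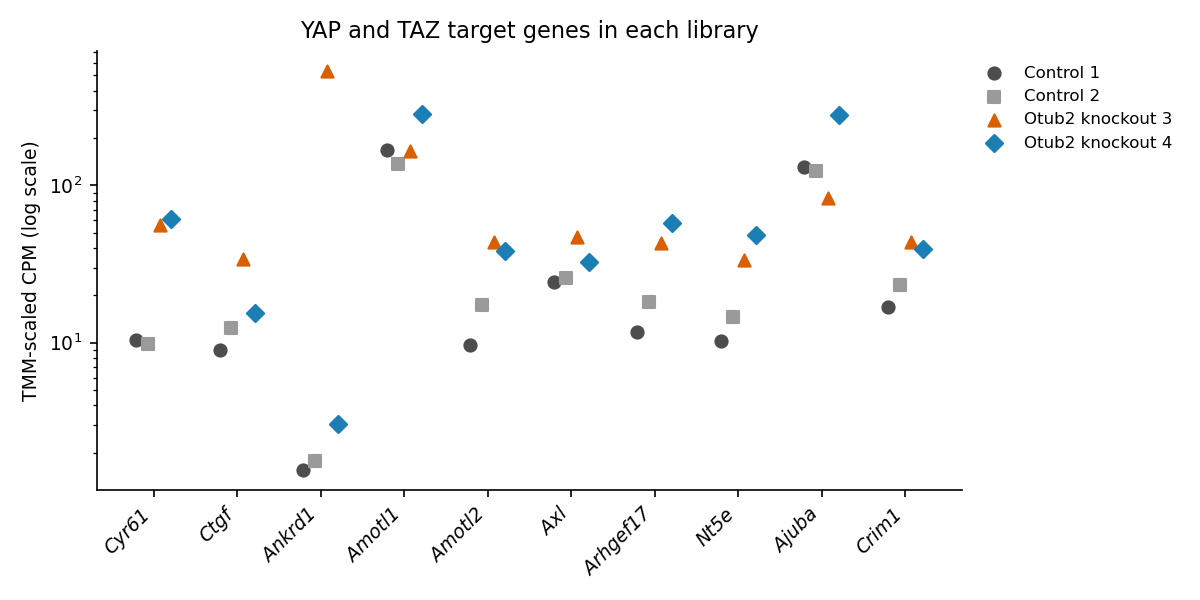
TMM-scaled CPM (log axis) of the 10 genes in the 4 libraries, 1 point per library. Both knockout points lie above both control points for every gene except Amotl1, where knockout 3 sits among the controls at 165.6 CPM, and Ajuba, where knockout 3 is the lowest point at 83.0 CPM.

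The element that TEAD factors recognise has the core letters GGAATG, read as CATTCC on the other strand. RefSeq windows of the 250 bases before a RefSeq transcription start (GRCm38.p6) were searched for it on both strands; 8 of the 10 genes had a window. The core was present in 6 of the 8 (Cyr61, Ankrd1, Amotl2, Axl, Ajuba and Crim1) and in 14.4% of the 27025 genes of that table, or 12.6% of its 32851 windows. It was not found in the windows of Amotl1 and Nt5e, which says only that these letters are not there. The letters TGANTCA, which AP-1 factors bind and which are often found beside TEAD elements in enhancers, were in 0 of the 8 windows and in 7.8% of genes. A match is a description of the sequence and not evidence of binding. Starts are those of RefSeq and differ from the GENCODE gene starts printed with each gene. The RefSeq start lay 4 bases outside the GENCODE gene for Cyr61, 28 for Axl and 103 for Ajuba, was the same for Crim1, and lay 255 bases inside it for Ankrd1, 412 for Nt5e, 1132 for Amotl2 and 30056 for Amotl1. Bases just after the RefSeq start were found in a GENCODE transcript of the gene for 6 of the 8, all but Axl and Ajuba. For Axl and Ajuba the bases looked for began outside the GENCODE gene, so this check could not find them. The windows of Cyr61 and Ajuba are shown whole, to set a gene where both knockout libraries were high beside one where they parted. For Amotl2 and Ankrd1 only 30 bases around each core are shown. Of the 250 bases in their windows, 136 and 250 lie in GENCODE exons of the same gene. So do 250 bases of the Nt5e window and 56 of the Amotl1 window. Each reads 5′ to 3′ on the gene's strand, with the core in capitals.
Cyr61 window: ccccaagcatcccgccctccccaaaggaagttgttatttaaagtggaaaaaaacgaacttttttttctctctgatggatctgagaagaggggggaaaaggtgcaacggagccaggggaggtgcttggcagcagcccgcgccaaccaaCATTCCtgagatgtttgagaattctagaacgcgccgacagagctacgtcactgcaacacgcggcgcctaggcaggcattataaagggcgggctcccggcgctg
Ajuba window: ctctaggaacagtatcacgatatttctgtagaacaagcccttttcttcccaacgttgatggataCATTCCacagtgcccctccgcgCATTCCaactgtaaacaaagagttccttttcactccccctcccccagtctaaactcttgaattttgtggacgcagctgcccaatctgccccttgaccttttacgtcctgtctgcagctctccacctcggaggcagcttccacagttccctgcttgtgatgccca
Amotl2 core: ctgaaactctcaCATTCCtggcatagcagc
Ankrd1 distal core: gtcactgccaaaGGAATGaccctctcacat
Ankrd1 proximal core: gacactaagtctGGAATGaaaattcacctg
The windows are chr3:145649986-145650235, minus strand for Cyr61 and chr14:54577662-54577911, minus strand for Ajuba. The shorter stretches are chr9:102717727-102717756, plus strand for Amotl2, and chr19:36120037-36120066, minus strand and chr19:36119950-36119979, minus strand for Ankrd1. Counted back from the RefSeq start, the first base of the core lay at -103 in Cyr61, at -186 and -164 in Ajuba, at -65 in Amotl2, and at -210 and -123 in Ankrd1. In windows not shown it lay at -233 in Axl and -79 in Crim1. The GC content of the 8 windows ran from 50.8% in Ajuba to 77.6% in Crim1, with a median of 59.2% against 52.4% over all windows.

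Cyr61 and Ctgf code for secreted matricellular proteins of the CCN family, which bind integrins and matrix and are the most used YAP and TAZ targets. Cyr61 (ENSMUSG00000028195, protein coding, GRCm38 chromosome 3, 145646976 to 145649981, minus strand) had 148 and 133 counts in wild type and 801 and 1256 in knockout 3 and 4. These are 10.4 and 9.74 CPM in wild type and 55.9 and 60.8 CPM in the knockout libraries. The groups were far apart and the libraries within each were close, the lower knockout library standing 5.40-fold above the higher control. Its log2 fold change of 2.54 (SE 0.277, n = 2 libraries per group, 95% interval 1.83 to 3.24) had the smallest p of the 10 genes (edgeR unadjusted p = 0.000215, adjusted p = 0.166; DESeq2 adjusted p = 8.09e-08).

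Ctgf (ENSMUSG00000019997, protein coding, chromosome 10, 24595442 to 24598683, plus strand) had 129 and 169 counts in wild type and 489 and 318 in the knockout libraries. On the CPM scale it was at 9.03 and 12.4 in wild type, 34.1 in knockout 3 and 15.4 in knockout 4. The groups did not overlap, but knockout 4 was only 1.24-fold above Control 2. The log2 fold change was 1.21 (SE 0.500, edgeR adjusted p = 0.212). With knockout 4 alone against the controls it was 0.55, against 1.67 for knockout 3 alone. Cyr61 was thus at nearly the same level in both knockout libraries (2.46 and 2.58 above the control mean on the log2 scale), whereas Ctgf was higher in knockout 3 (1.68) than in knockout 4 (0.54). Exons of Ctgf share 665 bases with Gm15270 on the opposite strand, which had 1 to 3 counts per library, and the strand setting of the counting is not given in the sources used here.

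By the distance between log2 CPM profiles over the 4 libraries, each centred on the gene's own mean, the 3 genes of 11266 with a mean of at least 5 CPM that were most like Cyr61 were Foxc1 (distance 0.104), Helz2 (0.178) and Dpysl4 (0.179). Foxc1, a forkhead transcription factor, was at 7.77 and 7.18 CPM in wild type and 44.8 and 48.7 CPM in the knockout libraries. Those most like Ctgf were Tm4sf1 (0.0464), Kif3c (0.0971) and Dld (0.0977). With 4 libraries many genes share such a profile by arithmetic alone.

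Axl, Nt5e and Crim1 are proteins of the cell surface. Axl (ENSMUSG00000002602, chromosome 7, 25757273 to 25788705, minus strand) is a receptor tyrosine kinase of the TAM family that binds Gas6. It was at 24.1 and 25.9 CPM in wild type, 47.2 CPM in knockout 3 and 32.6 CPM in knockout 4. Both knockout libraries were above the controls, knockout 4 by a small margin (1.26-fold over Control 2), and the log2 fold change was 0.67 (SE 0.312, 95% interval -0.12 to 1.47, edgeR adjusted p = 0.240). With upper-quartile scaling or library size only it was 0.20 and 0.17, and the groups overlapped.

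Nt5e (ENSMUSG00000032420, chromosome 9, 88327197 to 88372092, plus strand), known as CD73, is the ectoenzyme that turns extracellular AMP into adenosine. It had 146 and 198 counts in wild type and 482 and 1006 in the knockout libraries. Its levels were 10.2 and 14.5 CPM in wild type, 33.7 CPM in knockout 3 and 48.7 CPM in knockout 4. The groups were separate, with the lower knockout library 2.32-fold above the higher control (log2 fold change 1.74, SE 0.367, edgeR adjusted p = 0.166, DESeq2 adjusted p = 0.0135).

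Crim1 (ENSMUSG00000024074, chromosome 17, 78200248 to 78376592, plus strand) is a transmembrane protein that binds bone morphogenetic proteins and tempers their signalling. It was at 16.7 and 23.1 CPM in wild type and 43.9 and 39.6 CPM in the knockout libraries. The knockout libraries agreed closely and lay 1.71-fold or more above Control 2 (log2 fold change 1.07, SE 0.308, 95% interval 0.28 to 1.85, edgeR adjusted p = 0.168). Crim1 shares 123 exon bases with the opposite-strand gene Fez2, which had 370, 297, 605 and 593 counts in Control 1, Control 2, knockout 3 and knockout 4, so a part of the reads of this pair may be split between them.

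Amotl1, Amotl2 and Ajuba act on the Hippo pathway itself. The angiomotin-like proteins are junctional scaffolds that bind YAP and promote LATS activity, while the LIM protein Ajuba binds LATS kinases and restrains them. Amotl2 (ENSMUSG00000032531, chromosome 9, 102716672 to 102733418, plus strand) had 137 and 236 counts in wild type and 628 and 786 in the knockout libraries, or 9.59 and 17.3 CPM against 43.9 and 38.0 CPM. The controls differed from each other more than for any other member, and the knockout libraries still lay 2.20-fold or more above the higher of them (log2 fold change 1.61, SE 0.393, edgeR adjusted p = 0.166, DESeq2 adjusted p = 0.0320).

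Amotl1 (ENSMUSG00000013076, chromosome 9, 14541966 to 14645056, minus strand) had more counts than most members, with 2381 and 1869 counts in wild type and 2371 and 5870 in the knockout libraries. It was at 166.6 and 136.9 CPM in wild type, 165.6 CPM in knockout 3 and 284.1 CPM in knockout 4. Only knockout 4 was above both controls, so the groups overlapped (log2 fold change 0.57, SE 0.356, 95% interval -0.34 to 1.47, edgeR adjusted p = 0.343).

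Ajuba (ENSMUSG00000022178, chromosome 14, 54567472 to 54577558, minus strand) was the member whose knockout libraries went opposite ways. It had 1860 and 1692 counts in wild type, 1188 in knockout 3 and 5791 in knockout 4, or 130.2, 123.9, 83.0 and 280.2 CPM. Knockout 3 was the lowest library and knockout 4 the highest, and the log2 fold change of 0.52 (SE 0.584, 95% interval -0.97 to 2.0, edgeR adjusted p = 0.583) averages over that split. Set alone against the controls, knockout 4 gave 1.17 and knockout 3 gave -0.62. In a fit with each knockout library as its own group, added after seeing the data, Ajuba was higher in knockout 4 than in knockout 3 by 1.76 on the log2 scale (SE 0.309, edgeR adjusted p = 2.09e-07), with the spread taken from the controls alone.

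Arhgef17 (ENSMUSG00000032875, chromosome 7, 100869752 to 100932107, minus strand) is a guanine nucleotide exchange factor. Its counts were 166 and 246 in wild type and 612 and 1189 in the knockout libraries. By CPM it was at 11.6 and 18.0 in wild type, 42.7 in knockout 3 and 57.5 in knockout 4. The lower knockout library was 2.37-fold above the higher control, the second widest gap after Cyr61 (log2 fold change 1.76, SE 0.362, 95% interval 0.84 to 2.68, edgeR adjusted p = 0.166, DESeq2 adjusted p = 0.0118).

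**Figure D2:**
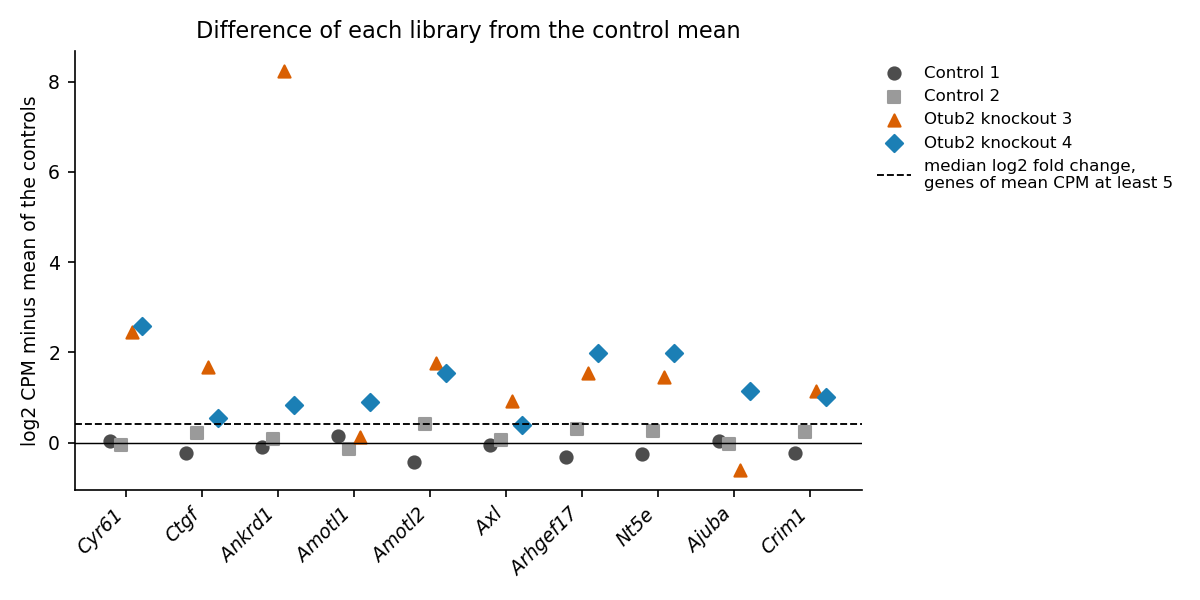
Log2 CPM of each library minus the mean of the 2 controls, for the 10 genes; the dashed line is the median log2 fold change of genes with a mean of at least 5 CPM (0.41). The knockout points of Cyr61, Ctgf, Ankrd1, Amotl2, Arhgef17, Nt5e and Crim1 lie above the line in both libraries, that of Ankrd1 in knockout 3 reaches 8.24, and that of Ajuba in knockout 3 is at -0.61.

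Ankrd1 codes for a nuclear and sarcomeric ankyrin-repeat protein that is a YAP and TAZ target in many cells and is also abundant in heart muscle. Ankrd1 (ENSMUSG00000024803, chromosome 19, 36111961 to 36120099, minus strand) had 22 and 24 counts in wild type, 7669 in knockout 3 and 63 in knockout 4, or 1.54, 1.76, 535.5 and 3.05 CPM. Knockout 3 stood far above the other libraries, and knockout 4 was 1.73-fold above Control 2. The log2 fold change of 7.34 (SE 2.35, 95% interval 1.36 to 13.3, edgeR adjusted p = 0.174) is therefore mostly that of 1 library. DESeq2 gave 7.36 (adjusted p = 0.0335) and voom 4.43 (adjusted p = 0.464), and without knockout 3 edgeR gave 0.91 (adjusted p = 0.0356, with the lone library assumed to vary like the controls).

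The library with the high Ankrd1 level was the one rich in heart transcripts. Myh6, the cardiac alpha myosin heavy chain, was at 3.71 and 4.39 CPM in wild type, 9390 CPM in knockout 3 and 0.437 CPM in knockout 4. The cardiac actin gene Actc1 was at 1.68, 2.49, 2758 and 0.920 CPM, and the troponin gene Tnnt2 at 35.5, 34.9, 2714 and 22.4 CPM in the same order. Of the 8 cardiomyocyte markers tested, 7 were above the control mean in knockout 3 and 1 was in knockout 4, and none of the 9 listed was at 0 counts in all libraries. In knockout 4 the cardiomyocyte markers summed to 31.9 CPM, against 55.4 and 55.7 CPM in the controls. The skeletal muscle markers summed to 63.1 CPM there, against 19.7 and 19.3 CPM. The part of muscle cells in the Ankrd1 value of either knockout library was not tested.

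**Figure D3:**
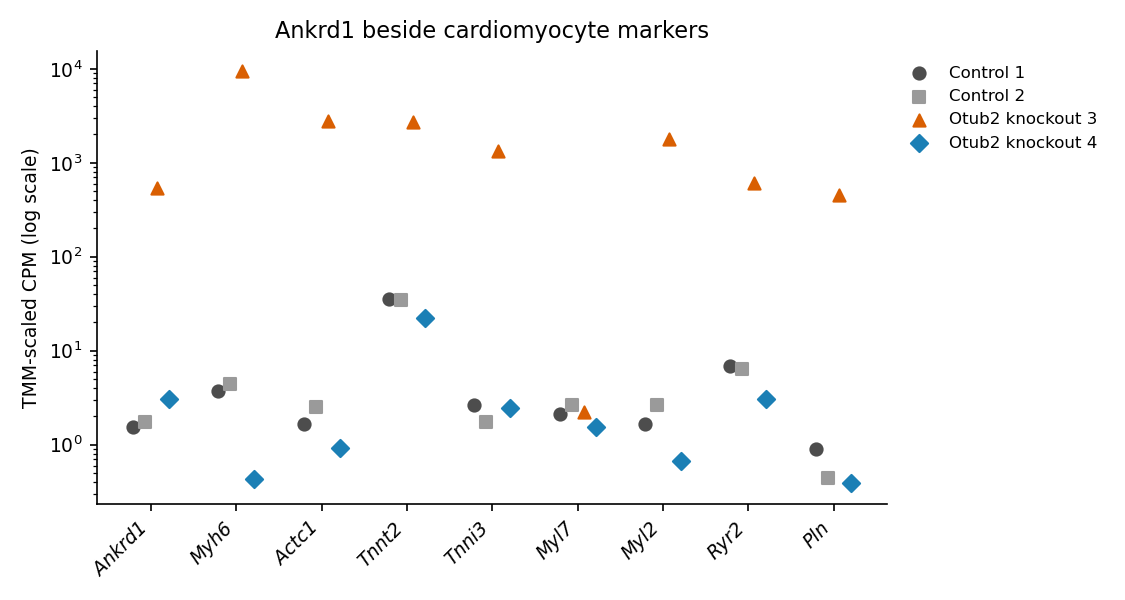
TMM-scaled CPM (log axis) of Ankrd1 and of 8 cardiomyocyte markers in the 4 libraries, 1 point per library. Ankrd1 (535.5 CPM) and every marker except Myl7 are highest in knockout 3 by a wide margin, and in knockout 4 Ankrd1 is above both controls at 3.05 CPM.

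Markers of stromal cells also differed between the libraries, and in bulk RNA fewer cells of a type and less RNA per cell cannot be told apart. The 9 fibroblast markers, none at 0 in any library, summed to 152.6 and 180.8 CPM in wild type, 683.8 CPM in knockout 3 and 401.2 CPM in knockout 4. Of the 9, 5 lay above both controls in both knockout libraries. The share was 26.9% over all genes tested and 42.7% among genes with a mean of at least 5 CPM. The 7 smooth muscle and pericyte markers summed to 60.0 and 55.7 CPM in wild type, 1023 CPM in knockout 3 and 108.5 CPM in knockout 4. The 7 endothelial markers summed to 93.4 and 77.8 CPM in wild type, 295.4 CPM in knockout 3 and 85.3 CPM in knockout 4, and leukocyte markers to 63.5, 63.1, 134.4 and 55.6 CPM. The 7 skeletal muscle markers summed to 19.7 and 19.3 CPM in wild type, 435.7 CPM in knockout 3 and 63.1 CPM in knockout 4. The sum in knockout 3 came mostly from Ckm (4154 counts) and Acta1 (1855 counts). Only 3 of the 7 were above the control mean there, and their median log2 difference was -0.88. Knockout 4 was thus above both controls in the sums of fibroblast, smooth muscle, skeletal muscle and gland markers and between them for endothelial markers. It was below them for leukocyte, cardiomyocyte and keratinocyte markers. The keratinocyte sum of knockout 3 was below both controls too. Sums follow the most abundant genes, and the markers of a list did not all go the same way. Above the control mean in knockout 4 were 5 of 9 fibroblast, 5 of 6 tested smooth muscle, 5 of 7 skeletal muscle and 2 of 5 tested gland markers. For keratinocyte markers it was 5 of 10. Of all 21916 genes tested, 10458 were above the control mean in knockout 4. The part of these cell types in the values of the 10 genes was not tested.

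Counting each knockout library alone against the controls gave 8 of 10 members called higher by edgeR in each case, but not the same 8. Knockout 4 alone (18.8% of all genes called higher) had every member but Ctgf and Axl called, and knockout 3 alone (22.4% called higher) every member but Amotl1 and Ajuba. In the fit of knockout 4 against knockout 3, Ajuba and Amotl1 were called higher in knockout 4 (9.92% of all genes were) and Ctgf and Ankrd1 lower (19.1% of all genes), and the other 6 did not pass. These fits share both controls and assume that a lone library varies as little as the controls do. The log2 fold changes of knockout 3 and 4 alone were close for Cyr61 (2.47 and 2.62) and Amotl2 (1.70 and 1.53). Those of Crim1 were close too (1.13 and 1.02). Values differed more for Arhgef17 (1.52 and 1.98), Nt5e (1.44 and 2.0) and Ankrd1 (8.33 and 0.91). They also differed for Ctgf (1.67 and 0.55), Axl (0.91 and 0.41), Amotl1 (0.12 and 0.93) and Ajuba (-0.62 and 1.17).

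Since gland transcripts filled much of knockout 3, the scale of that library matters for each of these values. The median log2 fold change of all genes was 0.09 with TMM, 0.14 with the size factors of DESeq2 (RLE), -0.38 with upper-quartile scaling and -0.35 with library size only, and all 10 members kept a positive log2 fold change under the 4 scalings. The median of the 10 members was 1.41, 1.45, 0.94 and 0.88. Both knockout libraries lay above both controls for 8, 9, 6 and 7 members, against 26.9%, 29%, 10.4% and 9.17% of all genes tested. With TMM factors taken only from genes with a mean of at least 5 CPM the count was 6 members, against 22.8% of those genes. Cyr61, Amotl2, Arhgef17, Nt5e, Crim1 and Ankrd1 were above both controls in all 4, while the groups of Axl overlapped under the last 2 and those of Ctgf with upper-quartile scaling.

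**Figure D4:**
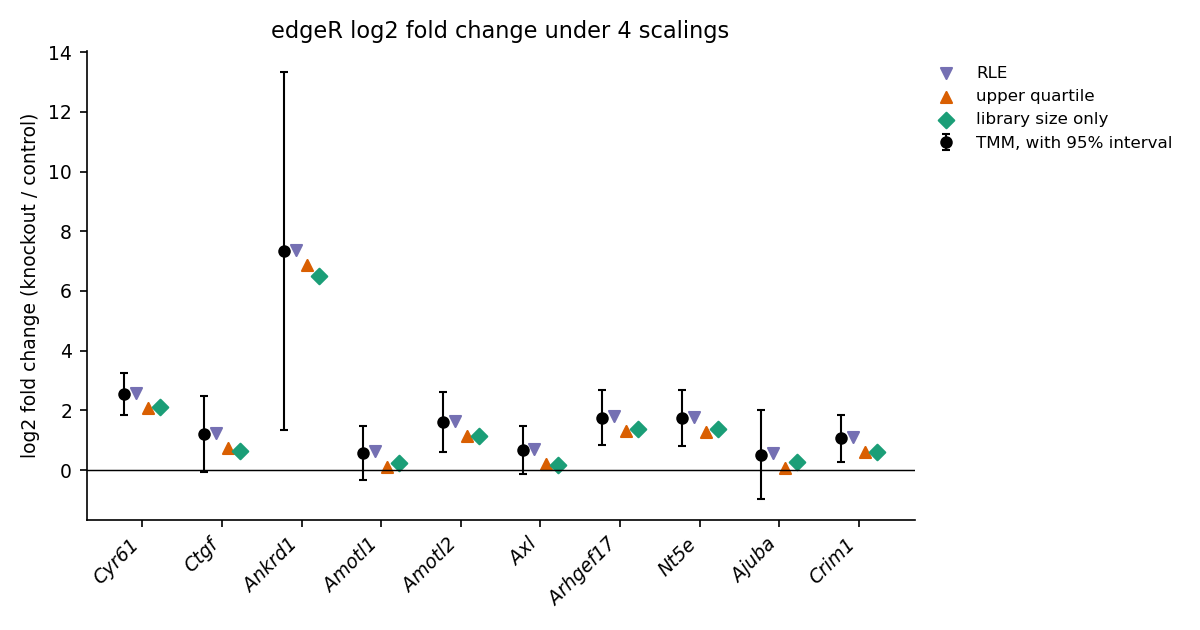
edgeR log2 fold change (knockout over control) of the 10 genes with TMM scaling, drawn with its 95% interval, and with 3 other scalings. All points lie above 0, with Amotl1, Ajuba and Axl between 0.06 and 0.72, Cyr61 between 2.07 and 2.59, and the interval of Ankrd1 reaching from 1.36 to 13.3.

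The deposited FPKM values, which equal the count over a gene length and the column's total, allow levels of different genes to be set in order within a library. In both controls Ajuba was the highest member (40.7 and 39.1 FPKM) and Amotl1 the next (18.9 and 15.6 FPKM), and Ankrd1 was the lowest (0.994 and 1.14 FPKM). Cyr61 and Axl were close to each other in wild type (5.84 and 5.54 against 5.47 and 5.90 FPKM) and did not differ beyond the spread of the controls. In knockout 4 Cyr61 was the second at 32.6 FPKM, behind Ajuba at 83.2 FPKM and just ahead of Amotl1 at 30.6 FPKM, and Axl was at 7.02 FPKM. In knockout 3 the order was led by Ankrd1 at 188.8 FPKM, followed by Cyr61 at 17.2 FPKM, Ajuba at 14.2 FPKM and Amotl1 at 10.2 FPKM; every FPKM of this library is lowered by the gland transcripts in its total.

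Other YAP and TAZ targets had a lower median. As the members were chosen with earlier results of these data known, this difference is a description only. The 14 further genes of a published target signature had a median log2 fold change of 0.28, below the 0.41 of genes with a mean of at least 5 CPM. Of the 14, both knockout libraries lay above both controls for 5 (Lats2, Asap1, Ccdc80, Dock5 and Ptpn14) and below for 1 (Nuak2), where the shares were 26.9% and 33.1% over all genes tested and 42.7% and 12% among genes with a mean of at least 5 CPM, and 0 passed the edgeR test. Nuak2, a kinase that sustains YAP activity, was at 153.7 and 106.6 CPM in wild type and 66.5 and 54.2 CPM in the knockout libraries (log2 fold change -1.11, SE 0.303, edgeR adjusted p = 0.166). Lats2, a kinase that inhibits YAP and is induced by it, had 8.19 and 8.57 CPM in wild type and 14.5 and 17.2 CPM in knockout (log2 fold change 0.92, SE 0.364, adjusted p = 0.204). The median difference from the controls over the 14 genes was 0.06 in knockout 3 and 0.65 in knockout 4, where the 10 members had 1.51 and 1.07.

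Of the pathway's own components, the ones with the smallest p were a scaffold, a TEAD factor and TAZ. Among 25 tested genes of the Hippo cascade, its effectors and the TEAD factors (Vgll1 was too low to test, and Lats2 is in both lists), both knockout libraries lay above both controls for 13 and below for 2. The shares were 26.9% and 33.1% over all genes tested, and 42.7% and 12% among genes with a mean of at least 5 CPM. The median log2 fold change of the 25 genes was 0.38, and 0 passed the test. Wwc2, a scaffold relative of Kibra, was at 23.2 and 17.7 CPM in wild type and 62.4 and 52.0 CPM in the knockout libraries (log2 fold change 1.48, SE 0.295, edgeR adjusted p = 0.166). Tead1 had a log2 fold change of 1.32 (SE 0.251, adjusted p = 0.166) and Wwtr1, which codes for TAZ, of 1.07 (SE 0.322, adjusted p = 0.170), at 34.6 and 40.6 CPM against 61.1 and 96.5 CPM. Yap1 had a log2 fold change of 0.11 (SE 0.245, adjusted p = 0.778). Of the other TEAD genes, Tead3 had 70.5 and 69.7 CPM in wild type and 53.1 and 50.1 CPM in knockout (log2 fold change -0.44, SE 0.234, adjusted p = 0.283).

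**Figure D5:**
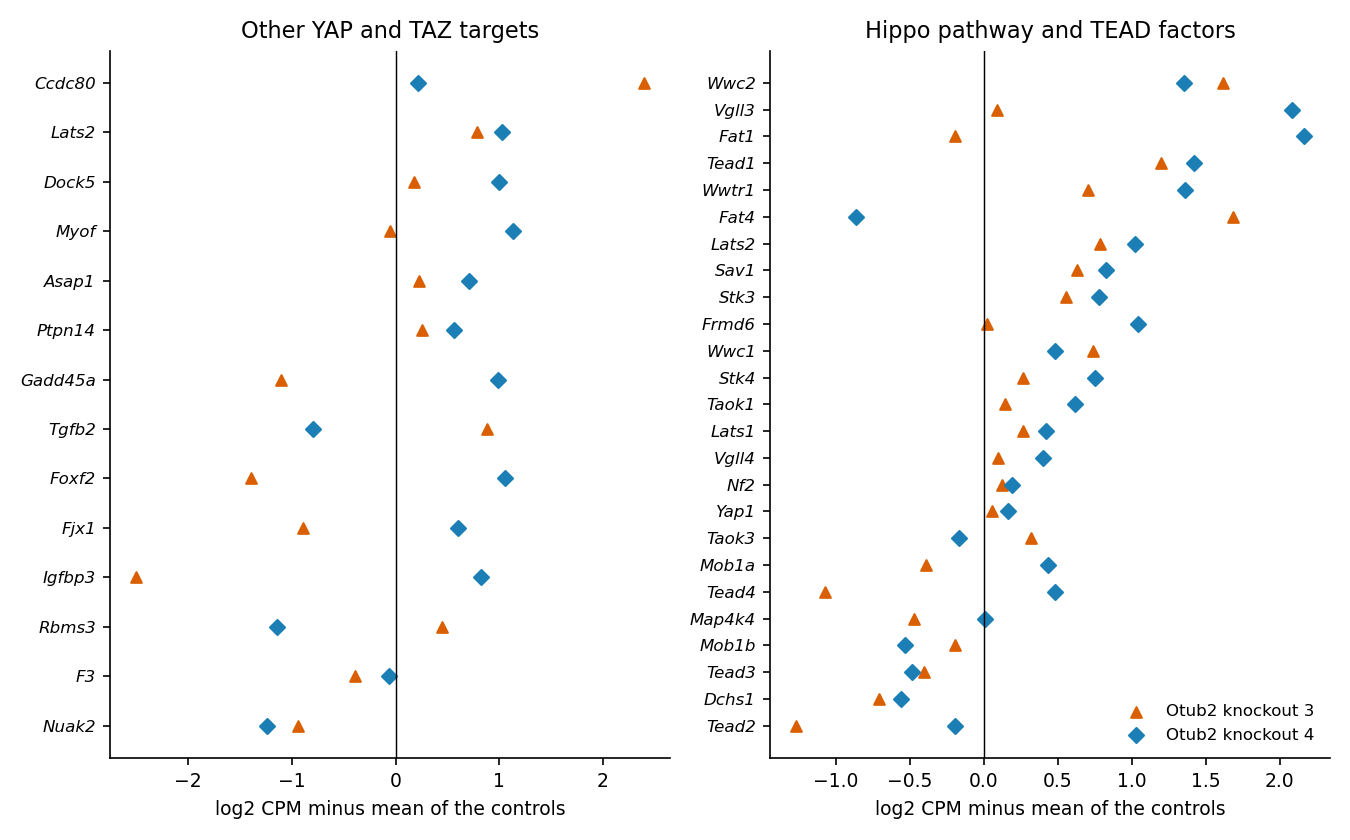
Log2 CPM minus the mean of the 2 controls in knockout 3 and knockout 4 for 14 other YAP and TAZ targets (left) and 25 Hippo pathway and TEAD genes (right), ordered by log2 fold change. Both points lie well above 0 for Wwc2, Tead1, Wwtr1 and Lats2 and below 0 for Nuak2 and Tead3, and the points of Igfbp3, Foxf2 and Fat4 lie on opposite sides.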

How the data were processed

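RNA of 4 libraries (2 wild type, 2 Otub2 knockout) was sequenced. The authors deposited raw counts per gene and FPKM values, per the file headers; HISAT2, DESeq and the human build GRCh38 are named, per the submitters' processing notes, with no version or role. Coordinates come from GENCODE mouse release 21 (GRCm38), which holds 54409 of the 54446 Ensembl IDs. Counter, annotation and strand setting: not given in the sources used here. The 14785 features without a gene name (0.914% to 2.84% of counts) were left out. No column of per-sample values was left unused (0).

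Counts were tested with edgeR 4.0.16 in R 4.3.3 (quasi-likelihood F-test, TMM, filterByExpr, Benjamini-Hochberg adjustment over 21916 genes, threshold 0.05), fitted on all genes and 4 libraries and read out for the members; standard errors come from the F statistic. DESeq2 1.42.0, voom of limma 3.58.1, other scalings and filters, and leaving out each library were alternatives. Log2 CPM used a prior count of 2. Scripts were tested on simulated data. All 10 members are named; from other lists, genes with the smallest p or relatives of a member, and any count of 5 or fewer in full. The rule for genes most like Cyr61 and Ctgf left out predicted genes. Members and lists were chosen with earlier results of these data known.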

Additional observations from a re-analysis of the deposited data

How the results depend on the processing

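No paired analysis was possible because the replicate numbers of the groups (1 and 2 against 3 and 4) are not shared. The count of members called was 0 with edgeR and 0 under voom, the other scalings and the other filters; DESeq2 called 5, which is the alternative that changed the call with all libraries in place. Leaving out 1 library leaves a group with a single library, and the spread then comes from the other group alone. Calls from those fits cannot be set beside the result with all libraries in place. The number of members with both knockout libraries above both controls ran from 6 to 9 over the scalings and filters, where 9.17% to 29% of all genes did. With a library left out, 1 group holds a single library, so lying above is easier to meet. The count was then 8 to 10. The share of all genes was 32.6% without Control 1, 32.8% without Control 2, 40.8% without knockout 3 and 40.4% without knockout 4. The median log2 fold change of the members was 1.41. It was 0.94 with upper-quartile scaling, 0.88 with library size only and 1.09 when only genes with a mean of at least 5 CPM were fitted. These shifts exceeded 0.307, the SD of the 2 knockout libraries' medians. The background moved too: the median of all genes was 0.09 with TMM, -0.38 with upper-quartile scaling and -0.35 with library size only. For genes with a mean of at least 5 CPM it was 0.41 in the main fit and 0.08 when only they were fitted. With a library left out the members' median ran from 1.09 to 1.76. Of single genes, Ajuba reversed, to -0.62 without knockout 4, and was 1.17 without knockout 3; no other member changed sign under any alternative run. Without Ankrd1, an alternative chosen after seeing the data, the counts were 0 called and 7 above both controls, and the median was 1.21. Depth limits Ankrd1 most, at 22 and 24 counts in wild type.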

Other observations

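Among 12 genes of the CCN, angiomotin, TAM receptor, LIM and ankyrin-repeat families and their partners, both knockout libraries lay above both controls for 3 (Amot, Limd1 and Wtip) and below for 4 (Nov, Wisp2, Ankrd2 and Tyro3), where the shares over all genes tested were 26.9% and 33.1%, the median log2 fold change was -0.02, and 0 passed the edgeR test. Tyro3, the TAM receptor related to Axl, was at 74.7 and 69.8 CPM in wild type and 47.0 and 47.8 CPM in the knockout libraries (log2 fold change -0.61, SE 0.236, edgeR adjusted p = 0.201), and Gas6, their ligand, at 118.9, 93.3, 110.1 and 76.3 CPM in Control 1, Control 2, knockout 3 and knockout 4. Amot, related to Amotl1 and Amotl2, was at 4.06 and 5.05 CPM in wild type and 6.08 and 15.9 CPM in the knockout libraries (1.27, SE 0.599, adjusted p = 0.246). Nov, a CCN relative of Cyr61 and Ctgf, was near 1 CPM or lower in all 4 libraries.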
